A study of Rattus norvegicus with 39 samples.

Results

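The livers of 3 rats at the end of 30 min of warm ischemia, before blood flow was restored, were compared lobe against lobe within each animal. In each rat the blood supply of the left and median lobes was clamped, and the right lobe kept its supply. RNA of the combined left and median lobes (labelled reperfused, although at 0 hr no reperfusion took place, and called clamped here) and RNA of the right lobe (non-ischemic) were each hybridized to an Affymetrix Rat Transcriptome 1.0 array. These 6 arrays, all of those labelled 0 hr reperfused or 0 hr non-ischemic with biological replicate numbers 1 to 3, are 6 of the 39 arrays of the series, and lobes with the same number came from the same animal. The series also holds both lobes of 9 rats with 0.5, 2 or 6 hr of reperfusion, 12 sham-operated and 3 unoperated rats.

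All animals were male Wistar rats of 5-6 weeks, surgery took place mid-morning under isoflurane, and each array held RNA of 1 animal chosen at random from its group. The 3 shams of 0 hr had their livers manipulated without any interruption of blood flow, and the lobe sampled in shams is not given in the sources used here. Since the clamp always lay on the same lobes, ischemia cannot be told apart from anatomical differences between the left and median lobes and the right lobe. The non-ischemic lobe is that of an operated animal with clamped neighbouring lobes, not that of an undisturbed liver.

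A clamped liver lobe loses oxygen and nutrients and is cut off from circulating hormones, while its RNA continues to decay. Immediate early genes, such as Fos and Egr1, are transcribed within minutes of a stimulus without new protein synthesis, and their short-lived mRNAs disappear quickly when transcription stops. In liver, hormones carried in the blood, such as glucagon, insulin and glucocorticoids, control many of the genes of glucose, sterol and bile acid metabolism.

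Values are log2 intensities. A difference is the log2 intensity of the clamped lobe minus that of the non-ischemic lobe of the same animal, so that negative values stand for a lower level in the clamped lobe. The 6 arrays had median intensities of 40.4 to 41.4 on the linear scale. Hepatocyte markers had a median difference of 0.00 over 7 probe sets. In 5 of the 7, among them albumin (Alb), the means of both lobes were above 18, near the top of the scale, where differences are compressed.

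No probe set passed the test at 0 hr, and the differences are described by their size in each animal. In a limma fit to the 3 within-animal differences, 0 of 23409 probe sets (0%) had an adjusted p under 0.05. The smallest adjusted p was 0.627, and 1547 probe sets had an unadjusted p under 0.05, of which 642 were lower in the clamped lobe. Without animal 3, 5 passed, all of them lower (Cyp7a1, Nr4a1, Il1rn, Rhob and Gem). These 5 rest on 2 animals, and without animal 1 or without animal 2, 0 passed. With 3 animals, an exact exchange of signs cannot give a two-sided p below 0.25 for a single gene. What follows for 0 hr is therefore a description of values in 3 animals, in which lower and higher refer to the clamped lobe. In whole tissue, fewer cells of a type and less RNA per cell cannot be told apart.

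The differences were larger on the lower side. In all 3 animals 2585 probe sets (11%) were lower and 3678 (15.7%) were higher, but with a mean difference of 1 or more on the log2 scale as well, 69 were lower (0.295%) and 12 were higher (0.0513%). Without animal 2 the 12 became 7 and without animal 3 they became 28. The 69 comprised 60 named genes, and their largest mean difference was -3.97, that is 15.7-fold. The 12 reached at most 2.06, that is 4.16-fold. In 40 of the 69 and in 3 of the 12, the 3 clamped arrays did not overlap the 3 non-ischemic arrays. Over all probe sets, every clamped array was below every non-ischemic array in 2.61% and above in 3.05%. Adjusted p-values were 0.627 to 0.758 among the 69 and 0.645 to 0.74 among the 12. The lower probe set with 1 symbol just inside the limit was Atp1b1 at -1.0 and the one just outside was Etnppl at -0.98.

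The 3 animals differed in the size of these differences. Among the 69, the median difference was -1.86 in animal 1, -2.23 in animal 2 and -0.81 in animal 3, and animal 3 had the smallest difference of the 3 for 64 of them. Among the 12 it was 1.16, 1.92 and 0.40, with animal 3 smallest for 11. Over all probe sets the standard deviation of the differences was 0.25, 0.30 and 0.20. As a description across probe sets, which share arrays and are not replicates, the differences of animals 1 and 2 had a correlation of 0.302, those of animals 1 and 3 of 0.166 and those of animals 2 and 3 of 0.152.

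The gene with the smallest p was Cyp7a1, the rate-limiting enzyme of bile acid synthesis. Its log2 intensity was 11.10, 11.96 and 10.83 in the clamped lobes of animals 1, 2 and 3, and 14.88, 15.49 and 13.45 in their non-ischemic lobes. All clamped lobes were below all non-ischemic lobes. The mean difference was -3.31 (standard error 0.23, n = 3 animals, limma adjusted p = 0.627), a 9.92-fold lower level. The 3 shams had 12.78, 16.31 and 15.90, all above the clamped lobes.

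Nr4a1, an orphan nuclear receptor of the immediate early response, had 7.96, 6.54 and 8.25 in the clamped and 11.90, 10.89 and 10.52 in the non-ischemic lobes. The lobes were separated by more than 2 units, and the shams, at 8.08, 7.10 and 8.03, lay in the range of the clamped lobes. The mean difference was -3.52 (standard error 0.40, limma adjusted p = 0.645), an 11.5-fold lower level. Ccn1, a secreted matricellular protein, had 9.70, 8.60 and 9.23 in the clamped and 12.65, 12.38 and 11.46 in the non-ischemic lobes, with a mean difference of -2.99 (standard error 0.29). Here the shams were split, with 8.53 and 8.93 beside the clamped lobes and 12.13 beside the non-ischemic ones.

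Chac1 had the largest mean difference and, among the 69, the widest range between animals on the log2 scale. Chac1, which degrades glutathione and is a target of the integrated stress response, had 10.03, 7.17 and 9.59 in the clamped and 14.10, 13.69 and 10.91 in the non-ischemic lobes. The differences were -4.08, -6.53 and -1.32 (mean -3.97, standard error 0.95). The lobes did not overlap, but animal 3 had both the lowest non-ischemic level and the smallest difference, and the shams covered 7.70 to 12.96.

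**Figure D1:**
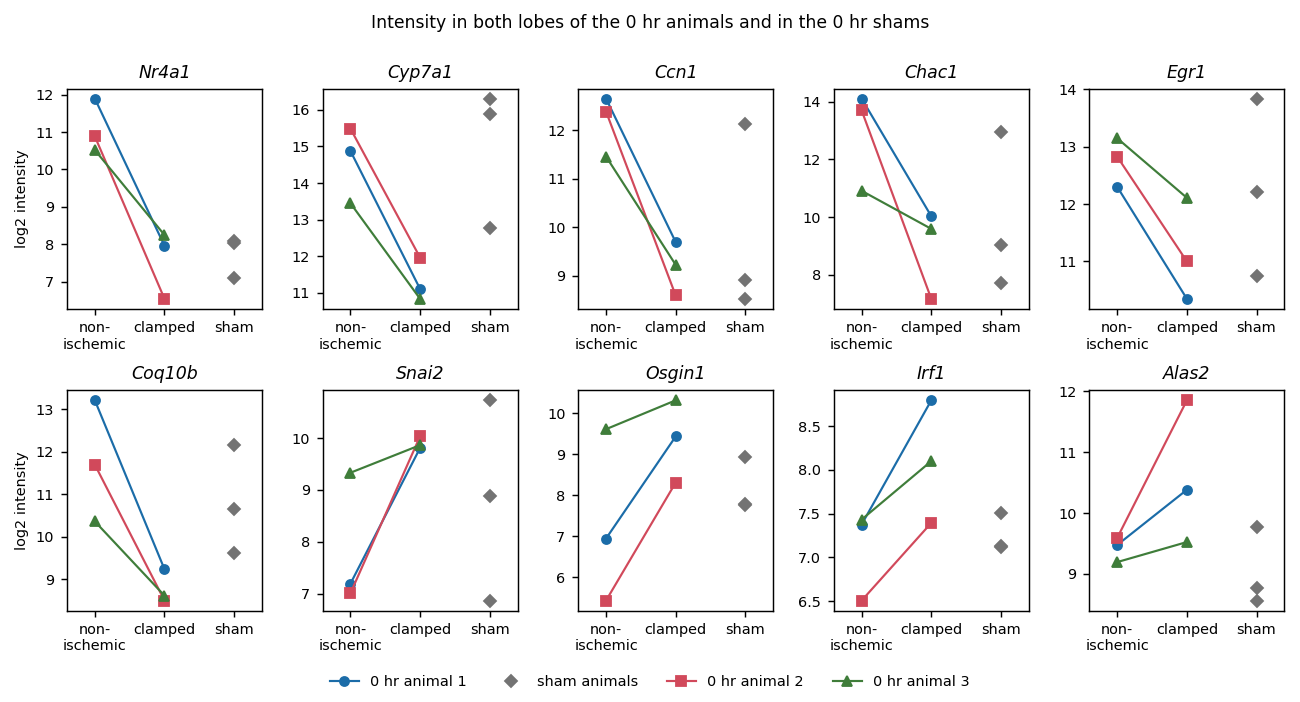
The plots of log2 intensity show 10 genes in the non-ischemic and the clamped lobe of each 0 hr animal, joined by a line, and in the 3 shams of 0 hr (diamonds), each gene on its own axis. Lines of Nr4a1, Cyp7a1, Ccn1, Chac1, Egr1 and Coq10b run down toward the clamped lobe in all 3 animals, and those of Snai2, Osgin1, Irf1 and Alas2 run up.

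Immediate early genes were the list with the most members among the 69. Of 52 immediate early genes measured, 34 were lower in all 3 animals and 3 were higher (of all probe sets, 11% and 15.7%). With a mean of 1 or more in addition, 16 were lower and 0 higher (0.295% and 0.0513% of all probe sets). Their median difference was -0.66, with animal medians of -0.78, -0.93 and -0.27, against 0.01 over all probe sets. None passed the test. Of the 52, 5 were dim (mean log2 intensity under 5 in both lobes), beside 10659 of all 23409 probe sets, so the shares are of unlike probe sets. The list was written with earlier results of these data known.

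Among the transcription factors of this list, Egr1 had 10.35, 11 and 12.11 in the clamped and 12.30, 12.82 and 13.15 in the non-ischemic lobes. No clamped array reached the lowest non-ischemic array, and the mean difference was -1.61 (standard error 0.19). Jun, a subunit of AP-1, had a mean difference of -1.85 (standard error 0.38), with 11.15, 9.12 and 10.57 against 12.88, 12.05 and 11.45. For Fos, the partner of Jun, the levels were 5.90, 8.06 and 8.79 against 8.0, 10.52 and 9.13, so that the lobes overlapped although each animal had less in its clamped lobe (-2.10, -2.46 and -0.34). Both lobes were above the shams, which had 5.13, 5.80 and 5.42. Atf3, also a stress-induced transcription factor, was mixed, with differences of -0.81, -1.35 and 0.43.

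Further members of the list were Sik1, a kinase that restrains cAMP-driven transcription, with differences of -3.04, -3.67 and -1.54, Apold1, an endothelial early response gene, with -3.10, -3.90 and -0.81, and the small GTPase Gem, with -2.80, -3.03 and -1.21. Nr4a2, a relative of Nr4a1, had -3.08, -2.42 and -0.46. The stress sensor Gadd45b, the GTPase Rhob, the matricellular protein Ccn2 and the transcription factors Klf2 and Myc had mean differences of -1.96, -1.90, -1.81, -1.50 and -1.48. Errfi1, a feedback inhibitor of EGF receptor signaling, had -0.32, -2.24 and -0.51, with most of the mean of -1.02 in animal 2 and non-ischemic levels above 18, near the top of the scale. The even differences of Zfp36, which promotes decay of mRNAs with AU-rich elements, were -1.01, -0.91 and -0.75 (mean -0.89, standard error 0.08). The 3 members higher in all 3 animals were Klf10, Ier3 and Plk2, with means of 0.95, 0.71 and 0.47.

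Upstream sequence is shown for 4 of these genes, because the cyclic AMP response element is a known control element of several immediate early genes and the lower genes were searched for its short core. RefSeq promoters on build GRCr8 were matched by symbol for 42 of the 60 lower genes. Within the 250 bases before the start, the short core TGACG was present on either strand (CGTCA on the other) in 21 of the 42. It was present in 28.6% of the 9005 genes with a promoter and a mean log2 intensity of 5 or more in a lobe, and in 18.2% of all 33469 promoters. The core was counted per gene, in any of its promoters, for the 42 and the 9005, but per promoter for the 33469. Of the 10 matched genes among the 12 higher ones, 0 had it. A match is a match of letters only. All 4 genes shown have the core, so they do not stand for the lower genes as a whole. Other lower genes, such as Ccn2, Gadd45b, Il1rn and Per1, had 0 matches, and no promoter was matched for Fos or Jun. The cores are in capitals in the lines that follow, 4 in Nr4a1 (chr7:134259888-134260137, plus strand), 1 in Ccn1 (chr2:237225690-237225939, minus strand), 2 in Egr1 (chr18:26736828-26737077, plus strand) and 2 in Sik1 (chr20:9958647-9958896, minus strand).
Nr4a1: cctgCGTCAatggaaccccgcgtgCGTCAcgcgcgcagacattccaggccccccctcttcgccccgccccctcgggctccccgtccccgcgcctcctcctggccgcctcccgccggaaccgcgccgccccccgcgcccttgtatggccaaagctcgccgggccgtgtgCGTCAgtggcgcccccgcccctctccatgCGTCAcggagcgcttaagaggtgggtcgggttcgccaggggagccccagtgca
Ccn1: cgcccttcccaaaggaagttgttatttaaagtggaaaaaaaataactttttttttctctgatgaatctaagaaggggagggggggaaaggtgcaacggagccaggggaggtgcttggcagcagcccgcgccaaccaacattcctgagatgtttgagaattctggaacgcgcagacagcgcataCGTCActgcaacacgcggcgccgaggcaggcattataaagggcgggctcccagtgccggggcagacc
Egr1: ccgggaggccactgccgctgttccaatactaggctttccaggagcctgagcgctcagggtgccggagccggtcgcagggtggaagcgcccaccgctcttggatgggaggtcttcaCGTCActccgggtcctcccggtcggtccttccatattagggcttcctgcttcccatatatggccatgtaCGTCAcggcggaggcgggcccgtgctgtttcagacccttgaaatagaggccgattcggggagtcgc
Sik1: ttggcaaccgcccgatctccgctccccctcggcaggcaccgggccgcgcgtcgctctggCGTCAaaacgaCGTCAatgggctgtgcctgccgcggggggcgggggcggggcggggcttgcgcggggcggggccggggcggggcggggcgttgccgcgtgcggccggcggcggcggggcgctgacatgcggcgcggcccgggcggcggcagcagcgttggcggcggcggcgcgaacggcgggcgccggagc

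Among inflammatory genes, Il1rn, Tnfaip3, Nfkbia, Il1a and Nfkbiz were lower by 1 or more on average (0.295% of all probe sets). Of 28 probe sets of NF-kB targets, chemokines and cytokines, 9 of them dim, 11 were lower in all 3 animals and 3 higher, with a list median of -0.11. The shares of all probe sets were 11% lower and 15.7% higher. Il1rn, the antagonist of the interleukin-1 receptor, had 9.57, 8.10 and 8.77 in the clamped and 12.44, 10.96 and 10.23 in the non-ischemic lobes, and a mean difference of -2.40 (standard error 0.30). The groups did not overlap. Tnfaip3, a ubiquitin-editing inhibitor of NF-kB, had a mean difference of -1.91, Nfkbia, which holds NF-kB in the cytoplasm, one of -1.56, and Nfkbiz, a nuclear member of the same family, one of -1.35, with animal 3 at -0.03. The cytokine Il1a stood at -1.38. In contrast, the chemokine Cxcl1 was mixed, with -1.16, -0.25 and 0.30. As for other cells that make such transcripts, 8 of 9 neutrophil and monocyte probe sets were dim (mean log2 intensity under 5 in both lobes). The 12 Kupffer cell and macrophage probe sets had a median difference of -0.01 with 0 lower and 0 higher in all 3 animals. Their animal medians of 0.29, 0.04 and -0.37 had opposite signs in animals 1 and 3.

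Genes of hormone-controlled metabolism were the next group. The list of gluconeogenesis and fasting had 22 probe sets, 10 lower and 1 higher in all 3 animals. The shares of all probe sets were 11% lower and 15.7% higher. By a mean of 1 or more, 4 of the list were lower and 1 higher (of all probe sets, 0.295% and 0.0513%), and the list median was -0.13. The lowest of the 4 was Sik1 (-2.75), already named among the immediate early genes. Irs2, which carries the insulin signal, had 11.35, 8.44 and 10.74 against 13.32, 11.76 and 12.17. The lobes did not overlap, and the mean difference was -2.24 (standard error 0.36). Sds, a serine-degrading enzyme of gluconeogenesis, had differences of -2.97, -1.09 and -0.55, and Pdk4, which shuts glucose carbon out of the citric acid cycle, had -0.81, -1.96 and -0.55. Klf15, a transcription factor of fasting, had -1.06, -0.67 and -0.58. Angptl4, which inhibits lipoprotein lipase, was on the higher side with 0.87, 1.85 and 0.41.

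Ppp1r3g, which targets a phosphatase to glycogen, varied more in level than in lobe difference. It had 12.07, 8.08 and 9.69 in the clamped and 13.88, 10.68 and 11.30 in the non-ischemic lobes, so that animals differed by up to 3.60 in the mean of their lobes while the lobe differences were -1.81, -2.60 and -1.61. Alas1, the first enzyme of heme synthesis in liver, was also lower in each animal, with differences of -2.14, -1.24 and -1.53 and levels of 14.39 to 14.98 against 15.92 to 16.57. The sterol regulator Insig1 had -1.35, -3.10 and -0.81, and the cholesterol carrier Stard4 had -1.53, -1.51 and -0.26. They were the 2 of 23 probe sets of fatty acid and sterol synthesis that were lower by 1 or more (0.295% of all probe sets). The list had a median of -0.04.

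Of 18 probe sets of the circadian clock, 3 were lower by 1 or more (0.295% of all probe sets). Noct, a clock-controlled phosphatase, had -2.25, -3.47 and -1.19, the repressor Bhlhe40 had -1.63, -2.0 and -0.41, and the clock gene Per1, which also responds to hormones, had -1.02, -1.66 and -0.79. The list median was -0.03. Among 25 probe sets of the integrated stress response, Chac1, Ppp1r15a (-1.78), Ddit4 (-1.32) and Sesn2 (-1.29) were lower by 1 or more (0.295% of all probe sets). The list median was 0.09, with 6 lower and 4 higher in all 3 animals (of all probe sets, 11% and 15.7%). Asns, a biosynthetic target of the same pathway, had 1.58, 0.34 and 0.26, and Atf4, its transcription factor, was mixed with -0.03, 0.84 and 0.14.

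Genes outside the lists were also among the 69. Coq10b, a mitochondrial protein that binds coenzyme Q, had 9.24, 8.50 and 8.62 in the clamped and 13.21, 11.69 and 10.36 in the non-ischemic lobes, without overlap, and a mean difference of -2.97 (standard error 0.41). Tcim was measured by 2 probe sets, which gave means of -2.33 and -2.14. Rasgef1b, an exchange factor of Ras-like proteins, had -1.30, -2.21 and -1.25, and the proteoglycan Sdc4 had -1.36, -1.52 and -0.95. The uridine phosphorylase Upp2 had -2.19, -1.03 and -1.50.

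Several of the remaining lower genes encode secreted or cell surface proteins. Adamts1, a secreted protease, had 8.28, 8.25 and 7.84 in the clamped and 10.46, 10.78 and 8.82 in the non-ischemic lobes, and Bmp10, a ligand of the BMP family, had 6.83, 6.85 and 7.0 against 8.82, 9.10 and 7.98. Neither gene overlapped between lobes. Thbs1, a secreted matrix glycoprotein, had differences of -1.16, -1.96 and -0.52, and Pvr, an adhesion receptor, had -2.22, -1.14 and -0.09, close to level in animal 3. Among enzymes and transporters, Lpin1, a phosphatidate phosphatase of lipid synthesis, had -1.67, -1.29 and -0.80, the mitochondrial carrier Slc25a25 had -0.60, -1.62 and -0.95, and the lipid transporter Mfsd2a had -0.28, -1.40 and -1.38. Mfsd2a and Slc25a25, like Errfi1, had their smallest difference in animal 1, and Alas1 and Upp2 had theirs in animal 2, in contrast to the other 64 of the 69. The transcriptional repressor Tgif1 had -1.67, -1.42 and -0.56 and the pseudokinase Trib1 had -1.10, -1.71 and -0.24. The 7 lower probe sets with no symbol had means from -3.29 to -1.09.

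**Figure D2:**
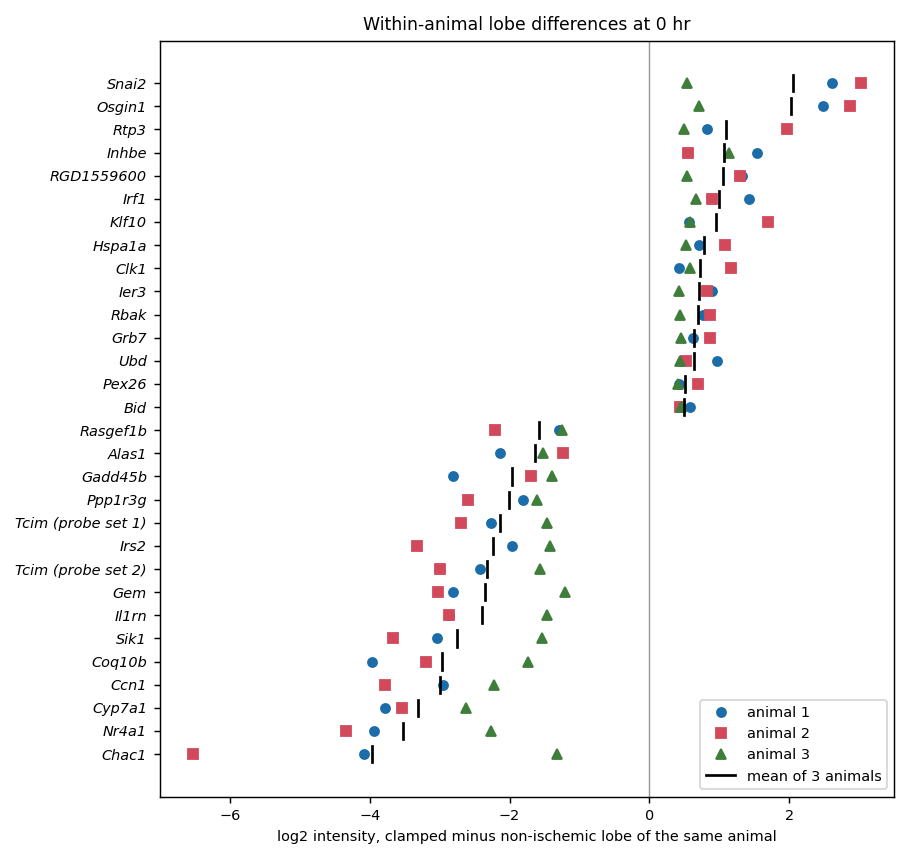
The plot of within-animal differences gives the clamped minus the non-ischemic log2 intensity in animals 1 to 3 (symbols) and their mean (bar) for the 15 probe sets in each direction with the largest smallest difference. All 3 symbols of a row lie on the same side of 0 by the choice of rows, and animal 3 (triangles) lies nearest to 0 in most rows.

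On the higher side, Snai2, a transcriptional repressor, and Osgin1, a target of Nrf2, stood first. Snai2 had 9.81, 10.03 and 9.86 in the clamped and 7.19, 7.01 and 9.33 in the non-ischemic lobes. The clamped lobes were alike, the non-ischemic lobe of animal 3 was close to them, and the shams spread from 6.87 to 10.73. The mean difference was 2.06 (standard error 0.49). Osgin1 had 9.43, 8.31 and 10.31 against 6.95, 5.44 and 9.61, with overlap between the groups and differences of 2.49, 2.87 and 0.70. Of 16 probe sets of Nrf2 targets and metallothioneins, Osgin1 among them, 4 were higher and 2 lower in all 3 animals, with a median of 0.15. The shares of all probe sets were 15.7% higher and 11% lower. Hmox1, which degrades heme, had 0.38, 0.27 and 0.09.

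Inhbe, which encodes a secreted activin subunit of hepatocytes, varied more between animals than between lobes. It had 14.17, 15.70 and 10.10 in the clamped and 12.63, 15.15 and 8.97 in the non-ischemic lobes, a range of 5.89 between animals beside differences of 1.54, 0.54 and 1.13. G0s2, an inhibitor of lipolysis, had a like spread, with 9.91, 12.43 and 7.88 against 8.43, 10.76 and 7.76. The transport protein Rtp3 had differences of 0.83, 1.97 and 0.50. Smaller differences of 1 sign were found for Bid, which promotes apoptosis (0.58, 0.43 and 0.46), the adaptor protein Grb7 (0.62, 0.87 and 0.45), the zinc finger protein Rbak (0.77, 0.86 and 0.43), the peroxisomal import factor Pex26 (0.43, 0.69 and 0.41) and the splicing kinase Clk1 (0.42, 1.16 and 0.57).

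The list of interferon-stimulated genes was the only pathway list with no member lower in all 3 animals. Of 19, 7 were higher and 0 lower in all 3 animals (of all probe sets, 15.7% and 11%), none by a mean of 1 or more. The list median was 0.23, with animal medians of 0.24, 0.48 and 0.04. Irf1, the transcription factor of the list, had 8.80, 7.39 and 8.10 in the clamped and 7.38, 6.51 and 7.43 in the non-ischemic lobes (differences 1.42, 0.89 and 0.67, standard error of the mean 0.16). The groups overlapped because animal 2 was low in both lobes. Rsad2, an antiviral enzyme, had 0.65, 1.26 and 0.22, and Ifit2 had 0.59, 0.48 and 0.39.

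Hypoxia genes had a median near 0. Of 35 HIF targets, 6 were lower and 4 higher in all 3 animals (of all probe sets, 11% and 15.7%), and the list median was 0.00. The members with a mean of 1 or more were Bhlhe40 and Ddit4 on the lower side and Angptl4 on the higher (of all probe sets, 0.295% and 0.0513%). Of the 35, 6 were dim in both lobes, among them Car9 and Egln3. Of 21 probe sets of heat shock chaperones, 8 were higher and 3 lower in all 3 animals (of all probe sets, 15.7% and 11%), with a median of 0.09 and animal medians of 0.14, 0.06 and 0.06. Hspa1a, the inducible Hsp70, was close to the dim limit of 5, at 5.30, 6.44 and 4.66 in the clamped and 4.59, 5.36 and 4.13 in the non-ischemic lobes, and the other probe set of this gene had a mean difference of 0.36. The respiratory chain was nearly level, with a median of 0.00 over 40 probe sets and a range of -0.21 to 0.23 in the mean difference. Cox8a, a subunit of its last complex, was mixed at -0.56, 0.21 and -0.25.

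The other pathway lists had medians within 0.1 of 0. Beside the counts that follow, 11% of all probe sets were lower and 15.7% higher in all 3 animals. Of 14 endoplasmic reticulum chaperones and related proteins, 5 were lower and 1 higher in all 3 animals, with a median of -0.09, and Edem1, which targets misfolded proteins for degradation, stood lowest at -1.19, -0.98 and -0.53. Of 19 p53 targets and regulators of apoptosis, 6 were lower and 1 higher (median -0.05). The 2 lower by a mean of 1 or more (0.295% of all probe sets) were Sesn2 and Tp53inp1, a stress protein at -1.39, -2.23 and -0.56. Acute phase proteins and Il6 signaling (21 probe sets) and splicing kinases and SR factors (22) each had 4 lower and 4 higher, with medians of 0.01 and -0.01. Hamp, the iron hormone hepcidin, reached 2.85 in animal 2 alone, beside -0.44 and 0.07. Of 12 cAMP and glucagon signaling genes, 3 were lower and 2 higher (median -0.03), and Crem, a cAMP-responsive repressor, had -0.87, -0.35 and -0.09.

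**Figure D3:**
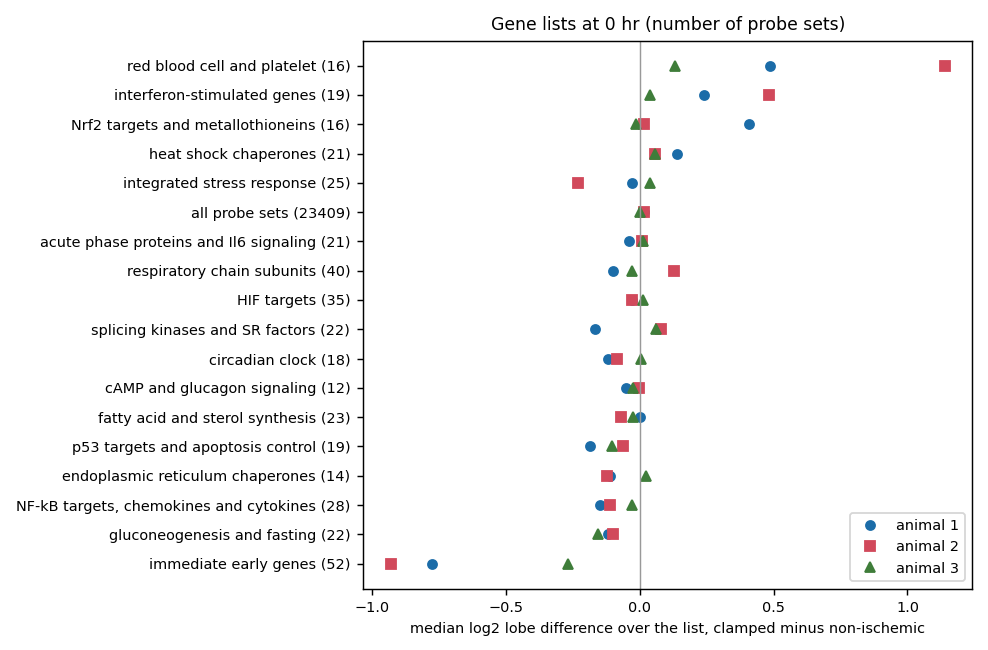
The plot of list medians gives, for each animal of 0 hr, the median log2 difference between clamped and non-ischemic lobe over the probe sets of each list (number in brackets) and over all probe sets. The immediate early genes lie below 0 in all 3 animals (-0.78, -0.93 and -0.27), and the red blood cell and platelet genes lie above 0 (0.49, 1.14 and 0.13).

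Markers of red blood cells were higher in the clamped lobe beside these differences. Of 16 probe sets of red blood cells and platelets, 10 were higher in all 3 animals, 4 of them by 1 or more (0.0513% of all probe sets), and 0 were lower. The shares of all probe sets were 15.7% higher and 11% lower. The list median was 0.58, which was 0.26 without animal 2 and 0.88 without animal 3. Alas2, the erythroid enzyme of heme synthesis, had 10.38, 11.85 and 9.52 in the clamped and 9.48, 9.59 and 9.20 in the non-ischemic lobes. The groups overlapped in range, and animal 2 had the largest difference (0.91, 2.26 and 0.33). The globins Hbb-b1, Hbb-bs and Hba-a3, whose near-identical copies the arrays may not keep apart, had means of 1.04, 1.05 and 1.02 in their highest probe sets, while Hba-a1 was near the top of the scale at 19.46 to 19.75. The platelet markers Itga2b and Ppbp had means of -0.09 and 0.00, and Gp9 was dim in both lobes. The summed linear intensity of the list lay between 984630 and 1480800 in clamped lobes. It lay between 903620 and 1009500 in lobes without clamp and between 809400 and 1094700 in 0 hr shams. Alox15, an enzyme expressed in maturing red cells among others, was also among the 12 higher probe sets (1.27, 2.17 and 0.06). Like the lower immediate early genes, the red cell genes had their largest median difference in animal 2 and their smallest in animal 3, and the part of blood content in the differences was not tested.

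Lists of other cell types had smaller medians. Median differences were -0.10 for 12 probe sets of sinusoidal and vascular endothelium, -0.07 for 10 of stellate cells and fibroblasts, and 0.02 for 11 of lymphocytes, with 1, 0 and 2 lower and 0, 0 and 1 higher in all 3 animals. Of cholangiocyte, mesothelium and smooth muscle, and skeletal muscle probe sets, 4 of 8, 5 of 7 and 3 of 4 were dim, with medians of -0.05, -0.11 and -0.04. All 7 pancreas probe sets and all 5 of adrenal gland and kidney were dim. Of the hepatocyte zone markers, Cyp7a1 was the only member of the 11 pericentral probe sets lower by 1 or more, and Sds the only one of the 10 periportal ones, with list medians of -0.01 and -0.20. Of the pericentral probe sets 3 were lower and 1 higher in all 3 animals, and of the periportal ones 5 were lower and 2 higher, beside 11% and 15.7% of all probe sets. The animal medians of the periportal list were -0.40, -0.02 and -0.07.

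The shams of 0 hr lay mostly between the lobes in the 69 lower probe sets. For 55 of the 69 lower probe sets the mean of the 3 shams lay between the means of the lobes, for 8 above both and for 6 below both. Their median log2 intensity was 8.93 in the clamped lobes, 9.90 in the shams and 11.04 in the non-ischemic lobes. Of the 12 higher probe sets, the sham mean was between the lobes for 4 and below both for 8. These positions are descriptive, since shams were other animals. Both groups were chosen for lobe means far apart, which by itself leaves more room for a sham mean between them. The share over all probe sets was not computed. After reperfusion the lobe difference of the 69 had a median of -0.75 at 0.5 hr, -0.09 at 2 hr and 0.12 at 6 hr, with 46, 38 and 26 below 0. That of the 12 had a median of 2.24, 0.25 and -0.24 at these times. Over all probe sets the median lobe difference was -0.003, 0.002 and -0.004, so that values below and above 0 were near balance. The count of 38 of the 69 at 2 hr was near such a balance.

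The lobe difference rose from 0 hr to 0.5 hr of reperfusion for 12 probe sets, 10 of them in the immediate early list (52 of 23409 probe sets). Egr1, Jun and Nr4a1 were not among the 12. In a fit to the within-animal differences of all 12 animals, the difference at 0.5 hr was higher than that at 0 hr for 12 probe sets (0.0513%) and lower for 0 (0%) of 23409. The mean lobe differences of the 12 had opposite signs at the 2 times. The count was 7 without animal 2 of 0.5 hr and 2 with trend and robust variance. Fos had lobe differences of 6.72, 7.02 and 6.49 in the 0.5 hr animals beside -2.10, -2.46 and -0.34 at 0 hr, and rose by 8.38 on the log2 scale (standard error 0.58, limma adjusted p = 0.000126). Ccn1 had 2.12, 3.36 and 4.99 beside -2.95, -3.79 and -2.23, and rose by 6.48 (standard error 0.86, adjusted p = 0.0276). No animal of one time reached the range of the other for either gene.

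The remaining 10 were Fosb (5.68), Ier2 (5.06), Atf3 (4.70), the chemokine Cxcl1 (4.58), the stress cytokine Gdf15 (4.30), Junb (3.31), Zfp36 (3.28), Klf4 (3.04), the phosphatase Dusp6 (2.54) and Gadd45a (2.35), with the change of the lobe difference on the log2 scale in brackets. The even and small differences of Zfp36 at 0 hr were followed by 2.45, 2.61 and 2.11 at 0.5 hr (standard error of the change 0.28, adjusted p = 0.00068). Over the 52 immediate early genes, the median lobe difference went from -0.66 before reperfusion to 0.47 at 0.5 hr. At 0.5 hr 38 of the 52 had a mean above 0. Among the 34 that were lower in all 3 animals at 0 hr it was 23, a share close to that of the whole list. Of those 34, Nr4a1, Sik1 and Gem stayed below 0, with means of -0.96, -2.16 and -2.54 at 0.5 hr.

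At 2 hr the lobe difference was higher than at 0 hr for 24 probe sets (0.103%) and lower for 16 (0.0683%). Inhbe, higher in every clamped lobe at 0 hr (1.54, 0.54 and 1.13), had -1.98, -2.37 and -2.67 at 2 hr, and fell by 3.41 (standard error 0.39, adjusted p = 0.0122). The next largest falls were those of the glycosidase-like Myorg (-1.81), the zinc finger protein Zfp949 (-1.48), the ceramidase Acer2 (-1.22) and Myd88, the adaptor of Toll-like receptors (-1.06). Ifrd1, a transcriptional coregulator, had -2.05, -1.96 and -0.48 at 0 hr and 1.05, 0.80 and 1.85 at 2 hr, and rose by 2.73 (standard error 0.43, adjusted p = 0.039). Other large rises were found for Bcl2l11, which promotes apoptosis (2.02), the kinase Mast4 (1.82), the nuclear corepressor Nrip1 (1.80) and the anchoring protein Akap13 (1.80). When the pairing of lobes was ignored, 1 probe set passed in place of 40. Without animals 1, 2 and 3 of 0 hr in turn, 1, 3 and 14 passed, and without those of 2 hr, 24, 16 and 1. At 6 hr 0 probe sets (0%) differed from 0 hr, with 1357 at an unadjusted p under 0.05 in limma. These 3 comparisons share the 0 hr animals.

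**Figure D4:**
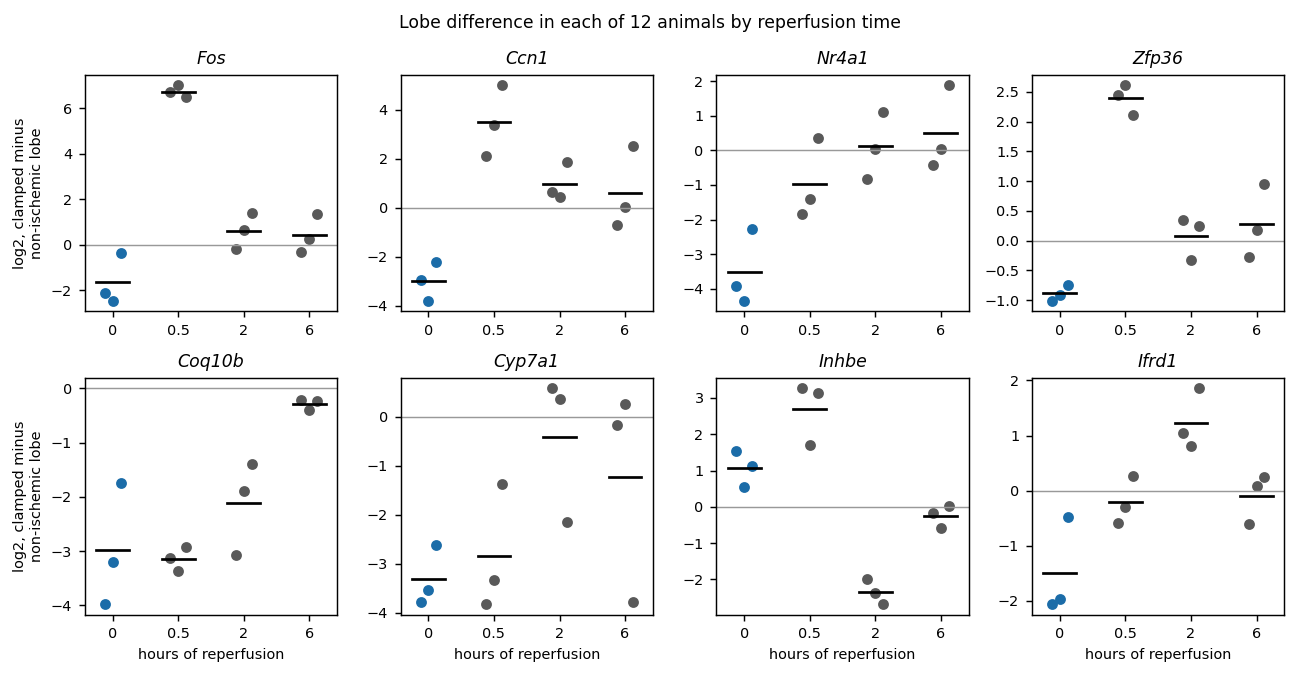
The plots of lobe difference by time show the clamped minus the non-ischemic log2 intensity in each of the 12 animals (points; 0 hr in blue) and the mean of 3 animals (bars) for 8 genes, each on its own axis. Fos, Ccn1 and Zfp36 lie below 0 at 0 hr and above 0 at 0.5 hr in every animal, and Coq10b lies below 0 in all 12 animals.

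Some of the lower genes were also lower after reperfusion. In the 9 animals with reperfusion, which share no animal with 0 hr, the mean lobe difference over the 3 times was higher than 0 for 55 probe sets (0.235%) and lower for 52 (0.222%); after quantile normalization these were 37 and 54. Of the 52, 33 were also lower in all 3 animals at 0 hr, beside 11% of all probe sets. Of the 55, 13 were higher in all 3, beside 15.7%, and 8 were lower in all 3. Among the 69 probe sets lower by 1 or more at 0 hr, 11 passed in the 9 animals, 10 of them lower and Fos higher. Among the 12 higher ones 0 passed.

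Coq10b was lower in the clamped lobe of 9 of 9 reperfused animals, with a mean lobe difference of -1.85 (limma adjusted p = 0.00243), beside -3.97, -3.19 and -1.74 at 0 hr. Its mean lobe difference was -3.14 at 0.5 hr, -2.12 at 2 hr and -0.28 at 6 hr. Upp2 had a mean of -2.02 and Ppp1r3g one of -1.53 over the 9 animals, lower in 8 and 7 of them. The amino acid transporters Slc1a4 and Slc38a2 had means of -1.35 and -0.89, the autophagy receptor Retreg1 one of -1.05, the cholesterol carrier Stard4 one of -0.997 and the sodium pump subunit Atp1b1 one of -0.82. Tat, a glucocorticoid-induced enzyme that degrades tyrosine, had a mean of -0.80, was lower in 9 of 9 animals and had -0.46, -1.20 and -0.16 at 0 hr. On the higher side in both, Plk2, a kinase of the immediate early list, had a mean of 0.75 and was higher in 9 of 9 animals, beside 1.04, 0.33 and 0.05 at 0 hr, and the lipid receptor Lpar6 had a mean of 0.50 beside 0.57, 1.41 and 0.41. These counts depended on the animals, from 14 to 210 with 1 animal left out (fewest without animal 2 of 6 hr, most without animal 1 of 6 hr), and with a trend and robust variance 0 passed.

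Cyp7a1 did not pass in the 9 animals (-1.49, adjusted p = 0.229), with mean differences of -2.85 at 0.5 hr, -0.40 at 2 hr and -1.23 at 6 hr. The red cell genes had animal medians of 2.89, 0.69 and 0.74 at 0.5 hr. The later medians were -0.33, 0.10 and 0.75 (2 hr) and -0.99, 0.28 and 0.58 (6 hr), so that their lobe difference was above 0 in all animals of 0 and 0.5 hr and had no constant sign later.

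**Figure D5:**
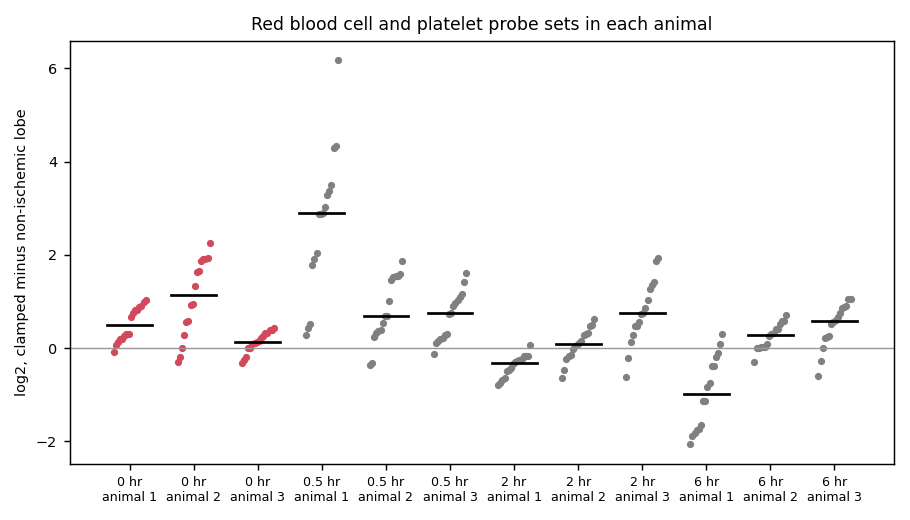
The plot of red blood cell and platelet genes shows the clamped minus the non-ischemic log2 intensity of 16 probe sets (points) and their median (bar) in each of the 12 animals, with 0 hr in red. Medians are above 0 in the 6 animals of 0 and 0.5 hr, with the highest, 2.89, in animal 1 of 0.5 hr.

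The overall distance between the lobes of an animal at 0 hr, taken as the Euclidean distance of their log2 profiles, was 38.9, 46.0 and 30.4 in animals 1, 2 and 3. In the 9 later animals it ranged from 38.1 to 81.3. The mean at 0 hr was lower by 11.6 units, a difference that did not pass (two-sided exact permutation test over animals, 3 against 9, p = 0.205).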

How the data were processed

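The arrays were of the type Rat Transcriptome 1.0. The authors used RMA with signal space transformation (Affymetrix Expression Console 1.0) and deposited linear intensity values for 23409 coding probe sets. These were converted to log2 without further normalization. A single gene symbol was found for 19778 probe sets, more than 1 for 419 and none for 3212. At 0 hr, 10783 had a mean log2 intensity under 5, where background weighs on the value, and 58 one over 19, near the top of the scale. Precision is limited by the small number of arrays, 3 in a group. The replicates are separate animals.

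Samples were grouped by their labels. The same replicate number marks lobes of 1 animal. Deviations from the group mean correlated over probe sets at 0.585, 0.696 and 0.804 for lobes of the same number and at -0.64 to 0.00691 for others. Centering on a mean of 3 animals pulls the values for unlike numbers down, so these are not independent support for the pairing. The within-animal difference was set as the value to test beforehand. It was tested with limma 3.58.1 in R 4.3.3, over all probe sets, with Benjamini-Hochberg adjustment, and 0.05 was the threshold. The study's methods describe an unpaired fit to probe sets above the median interquartile range (0.26), which was run as an alternative. Changes between times and the mean of the 9 reperfused animals came from 1 fit to the differences of 12 animals or of 9. Named genes were those with 1 symbol and a mean of 5 or more in a lobe that passed a test or led it by change (5 in each direction) or by p (5), the 15 in each direction with the largest smallest difference of 1 sign, list members lower or higher in all 3 animals with a mean of 1 or more, and Fos, Nr4a1, Cox8a, Jun, Egr1, Atf3 and Hmox1. Other genes in the text, from the lists or the comparisons, were chosen after their values were seen, as was the limit of 1. The genes, the 30 lists and the comparison itself were chosen with earlier results of these data known. The models were tested on simulated data. Python 3.11.15 was used for tables and figures, and RefSeq tables of build GRCr8 for symbols and promoters. Counts past the threshold and the named genes at 0 hr were recomputed under other filters, normalizations, variance models and sets of animals, and the lobe distance, the counts by size and the red cell median under some of these.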

Additional observations from a re-analysis of the deposited data

Results flagged for a closer look

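These results are listed because the lobe difference itself changed between times in the same fit (limma, adjusted p under 0.05). At 0.5 hr against 0 hr it changed for 12 probe sets, with the largest changes in Fos (8.38 on the log2 scale), Ccn1 (6.48), Fosb (5.68), Ier2 (5.06) and Atf3 (4.70). At 2 hr against 0 hr it changed for 40 probe sets. The largest rises were those of Ifrd1 (2.73), Bcl2l11 (2.02), Mast4 (1.82), Nrip1 (1.80) and Akap13 (1.80), and the largest falls those of Inhbe (-3.41), Myorg (-1.81), Zfp949 (-1.48), Acer2 (-1.22) and Myd88 (-1.06). Inhbe is the one gene among these that was higher in the clamped lobe of every 0 hr animal with a mean difference of 1 or more (1.54, 0.54 and 1.13), and its levels also spanned 8.97 to 15.70 over the 6 arrays of 0 hr.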

How the results depend on the processing

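At 0 hr the count of probe sets past the threshold was 0 as reported and under all alternatives but 1: left out in turn, the 3 animals gave 0 to 5, and the 5, without animal 3, were Cyp7a1, Nr4a1, Il1rn, Rhob and Gem, all lower (adjusted p 0.0344 to 0.0371). Without a replicate block the counts were 0 at 0 hr, 9 at 0.5 hr, 1 at 2 hr and 0 at 6 hr against 0 hr, and 12 in the 9 animals, so the pairing moved the counts from 40 at 2 hr and from 107 in the 9 animals. With trend and robust variance they were 2 at 0.5 hr, 18 at 2 hr and 0 in the 9 animals, and in the 6 animals of both times alone 20 at 0.5 hr and 10 at 2 hr. With 1 animal left out they were 7 to 13 at 0.5 hr (fewest without animal 2 of 0.5 hr), 1 to 24 at 2 hr, 0 to 1 at 6 hr (1 without animal 3 of 0 hr) and 14 to 210 in the 9 animals. At 2 hr the count was 1 without animal 1 of 0 hr, 3 without animal 2, 14 without animal 3, and 24, 16 and 1 without animals 1, 2 and 3 of 2 hr. In the 9 animals every animal left out moved the count by over 1.5 times except animal 3 of 6 hr. The causes were not tested beyond the animals left out.

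The counts lower or higher by 1 or more at 0 hr were recomputed after seeing the data. With 1 animal left out, 56 to 94 were lower (main 69) and 7 to 28 higher (main 12; fewest without animal 2, most without animal 3). Of the immediate early genes 14 to 22 were lower (main 16). With quantile normalization these were 69, 11 and 16. The red cell median of 0.58 was 0.26 without animal 2 and 0.88 without animal 3. Of 778 values of the 78 named probe sets under the alternatives, 772 kept their direction and side of the threshold, the 5 named above passed without animal 3, and Acer2 at 0 hr turned from 0.051 to -0.042 without animal 1 (-0.042 to 0.193 with 1 animal left out). The lobe distance kept its direction and missed the threshold under every alternative (-7.54 to -15.3, exact permutation p 0.182 to 0.418).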

Other observations

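Some genes differed more between the animals of 0 hr than between the lobes of an animal. Ifit1, an interferon-induced inhibitor of translation of viral RNA, had 14.02 and 12.13 in the clamped and 12.59 and 11.61 in the non-ischemic lobes of animals 1 and 2, but 3.30 and 3.78 in the lobes of animal 3. Fgf21, a hepatokine of fasting and stress, had 12.43 and 12.93 in the clamped and non-ischemic lobes of animal 2, 9.72 and 7.97 in those of animal 1 and 6.06 and 5.47 in those of animal 3. For 24 of the 69 lower and 8 of the 12 higher probe sets, the range between the 3 animals (each the mean of its lobes) was larger than the mean lobe difference. Both groups were chosen for a large lobe difference. The share over all probe sets was not computed, so these counts do not set the groups apart from other probe sets.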
